A study of Mus musculus with 14 samples.

Results

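Forkhead (Fox) genes encode transcription factors that share a winged-helix DNA-binding domain. The 38 genes described here were listed by name from 21887 protein-coding mouse genes: 12 are used in many cell types and 26 mainly in particular lineages. Among the broadly used members, the FOXO factors are held in the cytoplasm when insulin and growth factors activate AKT, FOXM1 drives genes of cell division, and FOXP, FOXK, FOXJ and FOXN members act widely, many of them as repressors. Lineage-restricted members include the FOXA pioneer factors of endoderm, FOXC and FOXF factors of mesenchyme and vessels, FOXD3 of neural crest, FOXE3 of lens, FOXN1 of thymus and FOXP3 of regulatory T cells. Pioneer members of the family can bind closed chromatin and open it, and silent developmental members commonly lie in Polycomb-marked domains.

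Accessible chromatin of mouse neural stem cells (mNSC) was profiled by ATAC-seq, which uses Tn5 transposase to tag open DNA. The cells carried an empty vector (EV) or ZFTA-RELA (ZR), a fusion of a zinc finger protein with the NF-kB subunit RELA that drives a brain tumour, supratentorial ependymoma. There were 7 groups of 2 libraries, with 1 peak list per library. Vehicle labels differed within EV, with DMSO given for replicate 1 and PBS for replicate 2, and were PBS for both ZR libraries. ZR_DMSO libraries are fusion cells titled DMSO but labelled PBS vehicle. ZR_GSK libraries are fusion cells with GSK-343, an inhibitor of the Polycomb methyltransferase EZH2, at 10 µM for 96 h. ZR_dmCitra libraries are fusion cells labelled with 10 mM citraconate, which blocks ACOD1, the enzyme that makes itaconate. DMSO_50K and Citraconate_50K belong to a second library series: DMSO_50K is labelled empty vector with DMSO, and Citraconate_50K is labelled ZFTA-RELA with 10 mM citraconate, so that treatment and cell line cannot be told apart there. The DMSO_50K libraries went against their cell line label in the checks given below, so that label is in doubt and every value of the second series is one of libraries so labelled. The protocol names 24 h and 48 h for citraconate without assigning either to a library. The labels do not say that replicates were separate cultures, that either line was 1 clone, or which promoter drove the fusion.

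Whole lists differed in ways that touch every comparison below. They held 12554 to 60472 peaks, with 12554 and 21143 in ZR_DMSO and 19513 and 57634 in ZR_GSK. Median peak width was 186 to 226 bp in ZR_DMSO, 260 to 330 bp in ZR_GSK and 419 to 533 bp in the other libraries. No read counts were used, so depth per library is unknown. Of 10 neural stem marker genes, 7 and 8 had a gene-end peak in the EV lists and 1 to 6 in the other libraries, and Pax6 had one in none. Sox2 and Sox1 had a gene-end peak in EV libraries only, so the libraries labelled empty vector in the second series lacked both. Gene-end peaks were found at 0 to 2 of 6 microglial and 0 or 1 of 5 astrocyte markers. By library, 23.5% to 56.1% of all protein-coding genes had one.

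Promoters are shown first, as the 250 bases before each listed transcription start, because peaks there set the members apart. The RefSeq promoter table (GRCm38.p6, whose chromosome coordinates are those of mm10) held 29 starts for 24 of the 38 members. The first 3 below overlapped a peak in all 14 deposited lists (Foxo3, Foxp4 and Foxd2), Foxc1 and Foxj2 overlapped one in 13, and Foxa1 in 9. Capitals mark a forkhead motif (TGTTTAC) in Foxa1 and an NF-kB consensus in Foxd2, Foxc1 and Foxj2, each searched on both strands.
Foxo3 (chr10:42276696-42276945, minus strand): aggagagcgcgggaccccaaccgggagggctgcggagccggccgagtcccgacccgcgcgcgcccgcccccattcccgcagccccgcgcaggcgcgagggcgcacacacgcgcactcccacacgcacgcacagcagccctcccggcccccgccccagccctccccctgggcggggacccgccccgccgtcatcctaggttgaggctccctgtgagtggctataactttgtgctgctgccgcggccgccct
Foxp4 (chr17:47924633-47924882, minus strand): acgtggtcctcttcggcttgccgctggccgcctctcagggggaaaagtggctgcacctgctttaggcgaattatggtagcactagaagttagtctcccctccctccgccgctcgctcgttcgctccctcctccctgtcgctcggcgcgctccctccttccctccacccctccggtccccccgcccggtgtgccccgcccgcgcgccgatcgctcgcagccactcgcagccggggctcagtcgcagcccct
Foxd2 (chr4:114908899-114909148, minus strand): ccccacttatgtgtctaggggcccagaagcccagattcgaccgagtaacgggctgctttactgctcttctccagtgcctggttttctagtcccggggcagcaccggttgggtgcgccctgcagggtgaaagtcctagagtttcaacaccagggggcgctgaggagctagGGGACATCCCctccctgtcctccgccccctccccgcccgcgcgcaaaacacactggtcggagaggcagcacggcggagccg
Foxc1 (chr13:31806396-31806645, plus strand): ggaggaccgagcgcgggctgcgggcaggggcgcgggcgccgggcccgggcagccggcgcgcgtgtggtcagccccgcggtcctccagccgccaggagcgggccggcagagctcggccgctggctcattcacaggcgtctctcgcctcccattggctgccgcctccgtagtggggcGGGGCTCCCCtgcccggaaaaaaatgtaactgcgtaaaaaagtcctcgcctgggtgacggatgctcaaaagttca
Foxj2 (chr6:122819934-122820183, plus strand): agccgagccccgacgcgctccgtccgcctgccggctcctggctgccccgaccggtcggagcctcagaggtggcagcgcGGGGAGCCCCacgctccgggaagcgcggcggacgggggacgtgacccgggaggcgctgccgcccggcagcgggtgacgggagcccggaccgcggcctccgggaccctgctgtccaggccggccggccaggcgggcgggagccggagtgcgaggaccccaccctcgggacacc
Foxa1 (chr12:57546112-57546361, minus strand): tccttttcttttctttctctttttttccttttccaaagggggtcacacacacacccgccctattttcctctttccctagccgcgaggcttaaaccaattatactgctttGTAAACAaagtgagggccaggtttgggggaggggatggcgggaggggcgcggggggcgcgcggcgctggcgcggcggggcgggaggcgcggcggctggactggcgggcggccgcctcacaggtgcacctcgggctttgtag
The NF-kB consensus was in 4 of the 29 forkhead promoters (13.8%), the fourth being that of Foxa3. It was in 3.90% of all 32851 promoters in the table and 4.18% of protein-coding ones. Median GC content was 62.8% in forkhead promoters, 52.4% in all promoters and 55.6% in protein-coding ones. The part of GC content in these shares was not tested. The forkhead motif was in 1 of 29 (3.45%), against 3.17% of all promoters. An AP-1 motif (TGANTCA) was in 1 of 29 (3.45%), that of Foxe3, against 6.75% of all. The AP-1 motif matched on both strands at the same site in Foxe3, and no other matches overlapped. The ratio of observed to expected CpG had a median of 0.704 in forkhead promoters and 0.530 in protein-coding promoters. By gene, the 12 members without a promoter peak in any library had a median ratio of 0.605. It was 0.879 for the 3 with one in all 14 and 0.928 for the other 9. The 12 include Foxn3, whose only listed start lies inside the gene.

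A gene end here is the 1 kb on either side of each end of the RefSeq gene, and a peak there is called a gene-end peak. Of the 38 members, 8 had one in all 14 deposited lists, 18 in some and 12 in none. The 8 were Foxk1, Foxm1, Foxn2, Foxo3 and Foxp4 among broadly used members, and Foxa3, Foxd2 and Foxo6 among restricted ones. All 12 without any were lineage-restricted: Foxa2, Foxb2, Foxc2, Foxd1, Foxd3, Foxd4, Foxe1, Foxl1, Foxn1, Foxn4, Foxp3 and Foxq1. By deposited list, 11.5% to 46.2% of restricted members and 50% to 100% of broadly used ones had a gene-end peak. Over all protein-coding genes the share was 23.5% to 56.1%. How many of all genes had one in all 14 lists or in none was not counted. Foxd1, a kidney stroma factor, and Foxe1, a thyroid factor, had no peak in any library even within 20 kb. Of the 18 with one in some lists, 10 had it in 12 or 13 libraries. The fewest were for Foxl2 of ovary, with one only in EV replicate 2, Foxe3 only in EV replicate 1, and Foxi1 of inner ear only in ZR_GSK replicate 2 and DMSO_50K replicate 2.

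**Figure D1:**
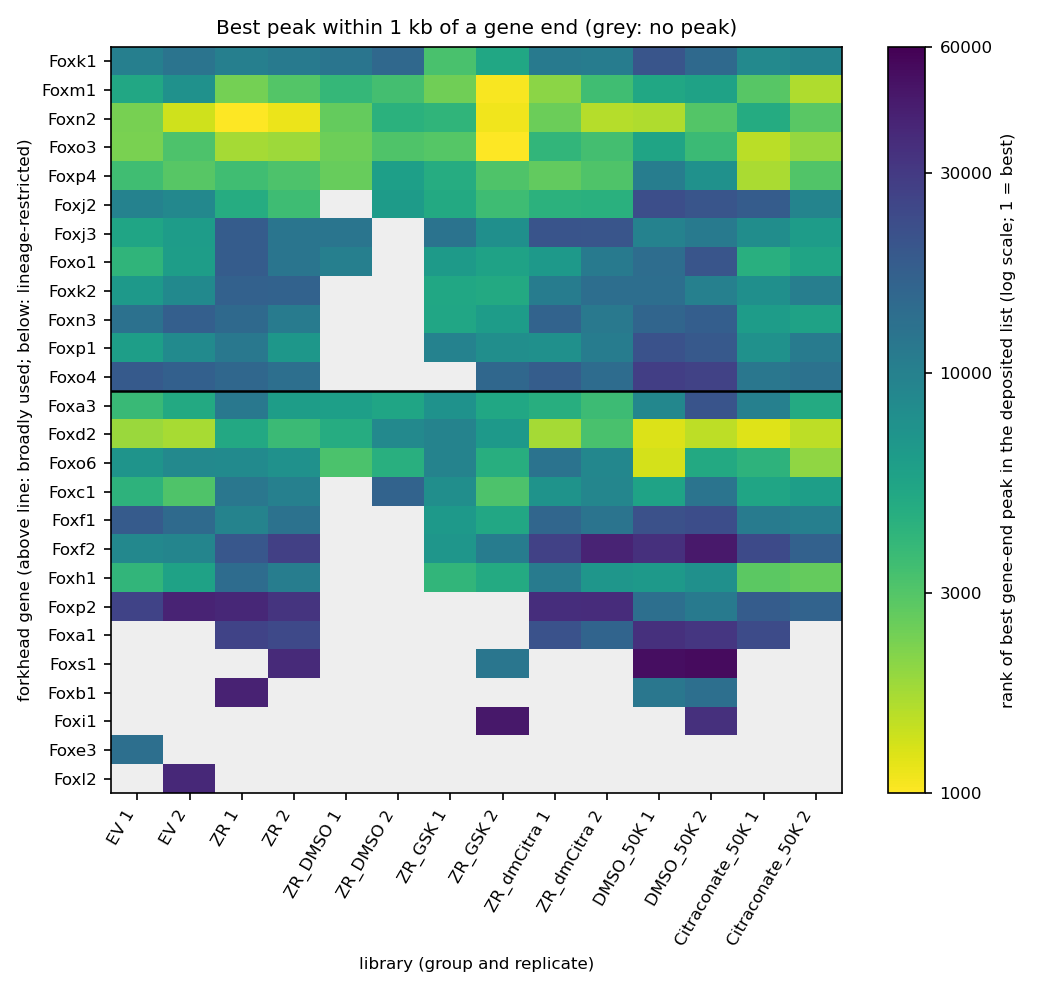
Rank of the best gene-end peak of each of the 26 forkhead genes that had one (rows) in each of the 14 deposited lists (columns), on a log colour scale, with 1 the best and grey where there was none. Broadly used genes above the line were filled in nearly every library outside ZR_DMSO; the lower rows hold members such as Foxb1, with a peak in 3 libraries.

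Shared ends limit 4 of these genes. The best Foxa3 peak lay within 1 kb of an end of Sympk in all 14 libraries, that of Foxm1 within 1 kb of Rhno1 in all 14, that of Foxj3 within 1 kb of Frg2f1 in 13, and that of Foxh1 within 1 kb of Ppp1r16a in 12. Those peaks cannot be assigned to 1 of the neighbours. Foxo4 also has a neighbour's end, that of Gm614, within 1 kb of its own, but in none of its 11 libraries did the best peak lie there. For Foxn3, a minus-strand gene, the gene-end peak lay at the upstream, higher-coordinate end. Its summits were at -112286 to -113644 bp from the start in the promoter table, which lies inside the gene.

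Because the lists differ in length, every list was also reduced to its 12390 best peaks by −log10 q, the length of the shortest list. At that length Foxm1, Foxn2, Foxo3, Foxp4 and Foxd2 had a gene-end peak in all 14 libraries and 16 members in none. Broadly used members with a gene-end peak numbered 9.5 ± 0.707 in EV, 8.5 ± 2.12 in ZR, 6 ± 1.41 in ZR_DMSO, 10.5 ± 0.707 in ZR_GSK, 9 ± 0 in ZR_dmCitra, 5.5 ± 0.707 in DMSO_50K and 11 ± 0 in Citraconate_50K (of 12, SD, n = 2 each). Restricted members numbered 6 ± 0, 5 ± 0, 3 ± 0, 7.5 ± 0.707, 5 ± 1.41, 5.5 ± 0.707 and 6 ± 0 in the same order (of 26, SD, n = 2 each). The libraries with most broadly used members were thus Citraconate_50K and ZR_GSK, and those with fewest DMSO_50K and ZR_DMSO. All protein-coding genes followed the same ends of that order, with 37.7% and 38.5% at the top and 26.8% and 23.7% at the bottom. EV, ZR and ZR_dmCitra could not be separated for broadly used members, since their libraries overlapped or tied.

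**Figure D2:**
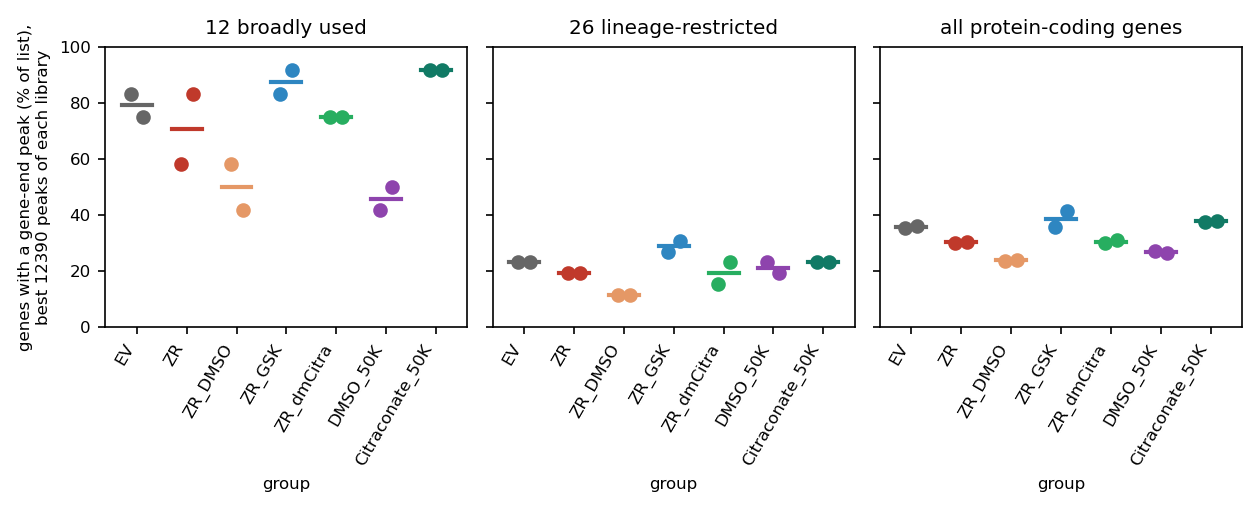
Percentage of 12 broadly used forkhead genes, 26 lineage-restricted ones and all protein-coding genes with a gene-end peak among the 12390 best peaks of each library (points), with the group mean (bar). ZR_DMSO had the lowest mean for restricted members (11.5%) and DMSO_50K for broadly used ones (45.8%).

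The first comparison asked how forkhead loci differed between fusion and empty-vector cells, with all 4 lists at 34989 peaks. Nearly all forkhead gene ends open in one were open in the other. Of 22 members with a gene-end peak in any of the 4 lists, Foxa1 alone gained one, meaning that both ZR libraries and neither EV library had it, where 3.09% of all such genes did. None lost one, where 6.92% of all genes did. Each of the 12 broadly used members kept one throughout the 4 lists. Restricted members with one numbered 8 and 9 in ZR and 9 and 7 in EV (exact permutation p = 1, two-sided; with 2 libraries against 2 the smallest possible is 0.333, so no such test here can pass a conventional threshold).

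Foxa1, whose protein opens chromatin in endoderm and hormone-responsive tissues, lies on the minus strand at chr12:57540628-57548029. The gained peak reached the window at its downstream end, with ranks of 26184 and 24174 in ZR replicates 1 and 2. The authors' fold enrichment was 9.05 and 9.68. Its summits, 7024 and 7277 bp past the listed start, lay beyond the gene and more than 1 kb from that end. The peak thus entered the gene-end window without its summit. It was also in both ZR_dmCitra lists, both DMSO_50K lists and Citraconate_50K replicate 1. The promoter itself overlapped a deposited peak in both EV and both ZR libraries, and it lies more than 1 kb from the RefSeq gene end. With a window of 500 bp or 2 kb, or at listed starts only, no member was gained.

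Rank within the equal-length lists separated the members further. Of the 19 members with a gene-end peak in all 4 lists, 6 ranked better in both ZR libraries than in either EV library (24.3% of all 9364 such genes did), and 8 ranked worse in both (46.9%). The better-ranked were Foxj2, Foxm1, Foxn2, Foxo3 and Foxo4 among 12 broadly used members, and Foxf1 among 7 restricted ones. The worse-ranked were Foxa3, Foxc1, Foxd2, Foxf2 and Foxh1 among restricted members, and Foxj3, Foxk2 and Foxo1 among broadly used ones. Restricted members thus ranked worse in 5 of 7 cases and broadly used ones in 3 of 12. The difference between the classes was not tested. Foxa3 and Foxh1 of those 5, and Foxj3 of those 3, had peaks shared with a neighbouring gene, as had Foxm1 among the better-ranked. Foxd2 and Foxj3 lie on chromosome 4, described below. The median log2 ratio of EV rank to ZR rank, negative where ZR ranks worse, was -1.29 for restricted members, 0.16 for broadly used ones and -0.29 for all genes.

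Among the FOXO genes the directions differed. Foxo1, a mediator of insulin signalling, ranked 4122 and 6174 in EV replicates 1 and 2 but 18199 and 12152 in ZR. Foxo3, which is needed to keep adult neural stem cells quiescent, ranked 2283 and 3147 in EV and 1735 and 1813 in ZR. Foxo4, on the X chromosome, ranked 18722 and 17219 in EV and 15249 and 13549 in ZR, and Foxo6 overlapped between the groups. Foxm1 ranked 5152 and 7529 in EV and 2367 and 2970 in ZR, and this peak is shared with Rhno1. Foxj2 showed the next largest gain in rank, from 9727 and 8807 in EV to 4733 and 3585 in ZR.

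Of the mesenchymal members, Foxc1 moved from 4261 and 3065 in EV to 11811 and 10129 in ZR, the largest drop of the 19, with a log2 rank ratio of -1.58. Foxf2 moved from 8844 and 9384 to 19752 and 27491, whereas Foxf1 moved the other way, from 18624 and 14598 to 9606 and 12888. Foxd2 ranked 1846 and 1710 in EV and 5030 and 3683 in ZR. Foxd2 and Foxj3 lie on chromosome 4, where 88.8% of 518 genes ranked worse in ZR, against 44.4% elsewhere. The part of that chromosome-wide shift in the ranks of these 2 genes was not tested.

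**Figure D3:**
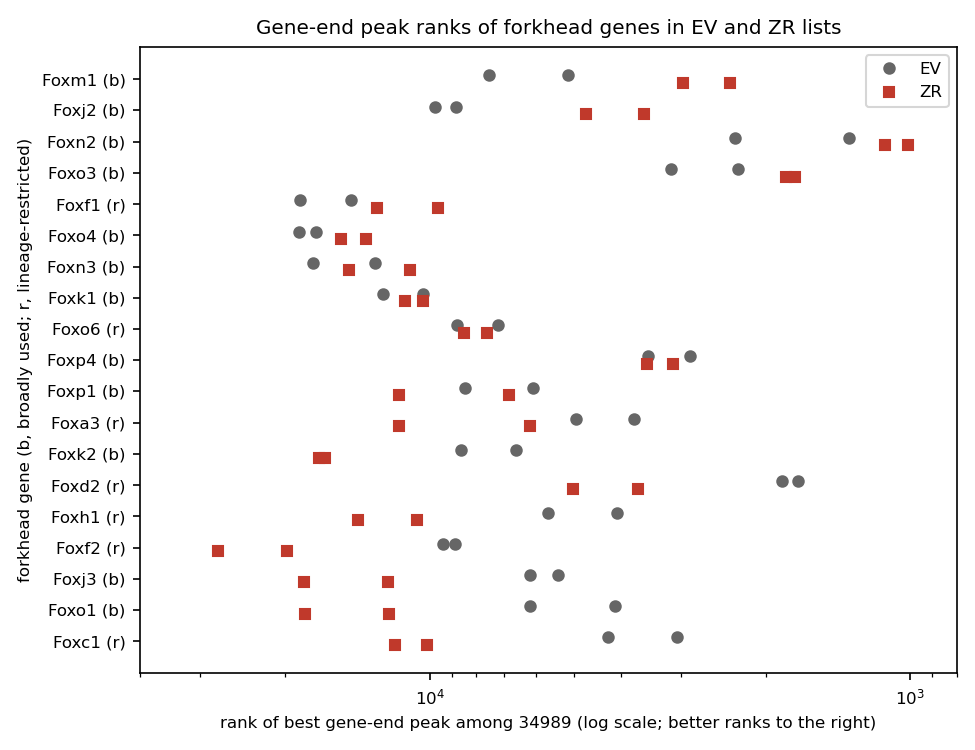
Rank of the best gene-end peak, among 34989 per list, of the 19 forkhead genes with one in both EV (circles) and both ZR (squares) libraries, on a log axis with better ranks to the right, ordered by the log2 ratio of mean ranks. At the top, squares lie right of circles, as for Foxm1; at the bottom they lie left, as for Foxc1.

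Away from gene ends the lists differed much more. Distal regions are merged peaks inside a member or within 20 kb of it that lie more than 1 kb from every protein-coding gene end. Of 98 such regions, 28 were gained (28.6%) and 22 lost (22.4%), and 14 were in all 4 lists. Over all protein-coding genes 25.5% of distal regions were gained and 21.4% lost, so the forkhead shares were near the background. Without the members on chromosome 4, 26 were gained and 19 lost. Foxp1, a repressor gene of 597405 bp, held 25 regions with 10 gained and 5 lost. Foxn3, which encodes a checkpoint-related repressor, held 16 with 2 gained and 6 lost. Foxo3 held 4, of which 3 were gained and none lost, Foxk1 held 7, with 1 gained and 3 lost, and Foxo6 held 7, with 1 gained and 2 lost. Without Foxp1, 18 regions were gained.

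The best-ranked gained region lay 18684 bp from the nearest end of Foxn2, at chr17:88508823-88509611, with ranks of 5135 and 5479 in ZR. It had a deposited peak in the 12 libraries other than EV. On the same flank, 2 of the best-ranked lost regions, at chr17:88505227-88505936 (ranks 7528 and 5929 in EV) and chr17:88494110-88495037 (5649 and 8008), had a peak in the 2 EV lists and in no other. Foxn2 thus had a gene-end peak in every library, while regions on its higher-coordinate flank differed between EV and the rest.

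Inside Foxp1 the gained regions of best rank were chr6:99217607-99218137 (ranks 7645 and 8187 in ZR), chr6:99188056-99189171 (9540 and 7075) and chr6:98955679-98956502 (11584 and 11760). The lost one of best rank, chr6:99509140-99509713 (12622 and 7526 in EV), lay 13320 bp from the higher-coordinate gene end. Foxq1, a factor of hair and epithelium without a gene-end peak in any list, gained a region at chr13:31567247-31568489, 6892 bp from its nearest end (10499 and 10554). Foxm1 gained one at chr6:128364541-128365189, 1871 bp inside the gene (12617 and 10359). Lost regions of best rank lay inside Foxn3 at chr12:99305784-99306718 (9977 and 8252 in EV) and chr12:99220263-99220704 (14002 and 12789). A further one lay 3534 bp from Foxb2, a neural tube factor gene, at chr19:16868427-16869137 (9516 and 11278). The table used here gives gene spans without exons, so exon and intron cannot be named.

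**Figure D4:**
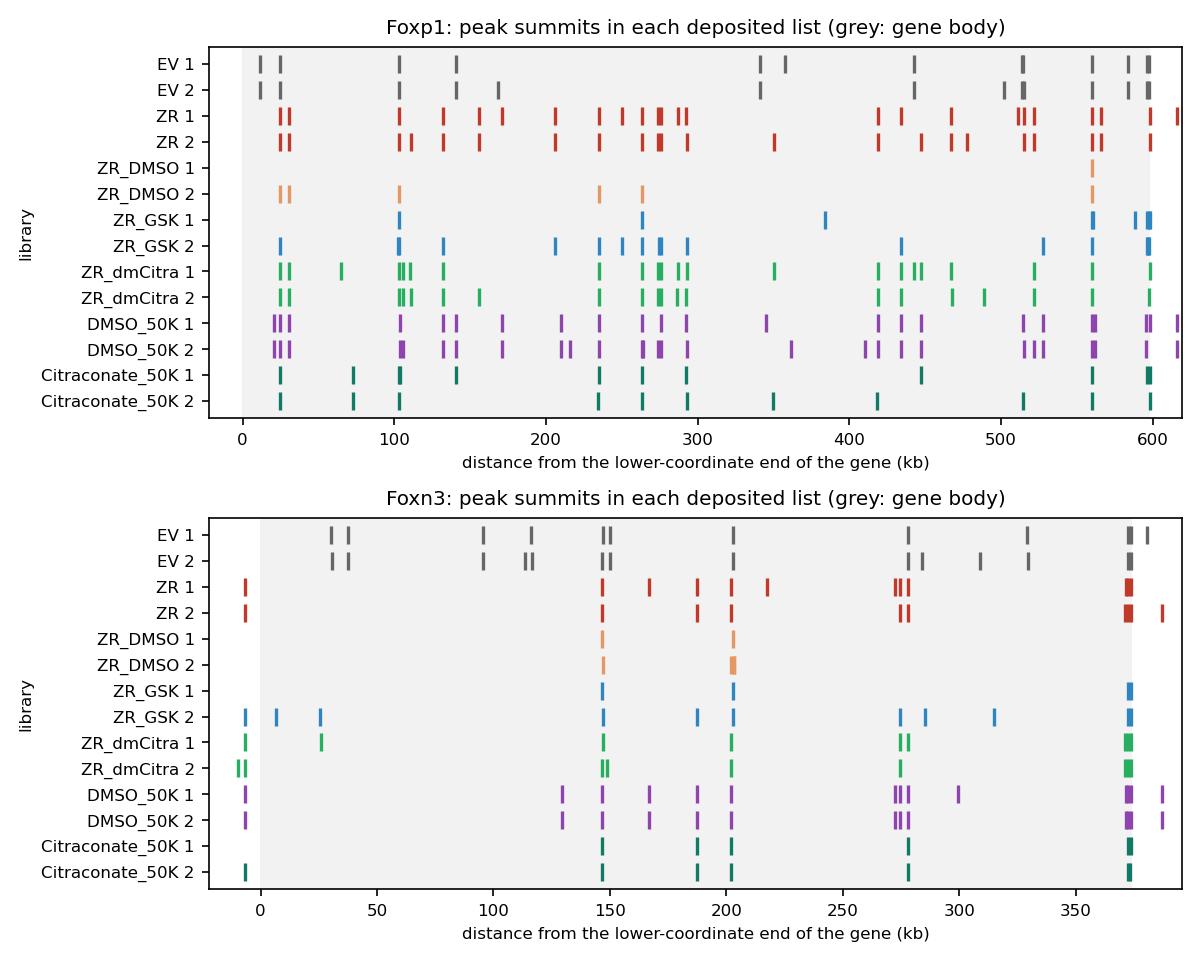
Peak summits in each deposited list (rows) across Foxp1 (top) and Foxn3 (bottom), as distance in kb from the lower-coordinate gene end, with the gene body in grey. Some Foxn3 summits appear in both EV rows and no other, and several Foxp1 summits in the ZR rows but not the EV rows.

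The 28 gained and 22 lost regions were then looked up in the lists that did not choose them. Gained regions had a deposited peak in 26 and 25 of 28 in ZR_dmCitra, 23 and 26 in DMSO_50K, 15 and 15 in Citraconate_50K, 3 and 17 in ZR_GSK and 3 and 10 in ZR_DMSO (replicates 1 and 2). Lost regions had one in 1 and 1 of 22 in ZR_dmCitra, 5 and 6 in DMSO_50K, 1 and 3 in Citraconate_50K, 0 and 2 in ZR_GSK and 0 and 0 in ZR_DMSO, and 14 of the 22 were in EV lists only. The DMSO_50K libraries, labelled empty vector, therefore held most fusion-gained forkhead regions and few fusion-lost ones. Over all protein-coding genes the gained regions had a peak in 79.3% and 85.0% in DMSO_50K, so the forkhead share of 82.1% and 92.9% was close to that of other genes. For lost regions the shares in DMSO_50K were 20.4% and 25.1% over all genes and 22.7% and 27.3% for forkhead genes. The forkhead counts of lost regions in DMSO_50K, though few, were the highest outside EV.

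**Figure D5:**
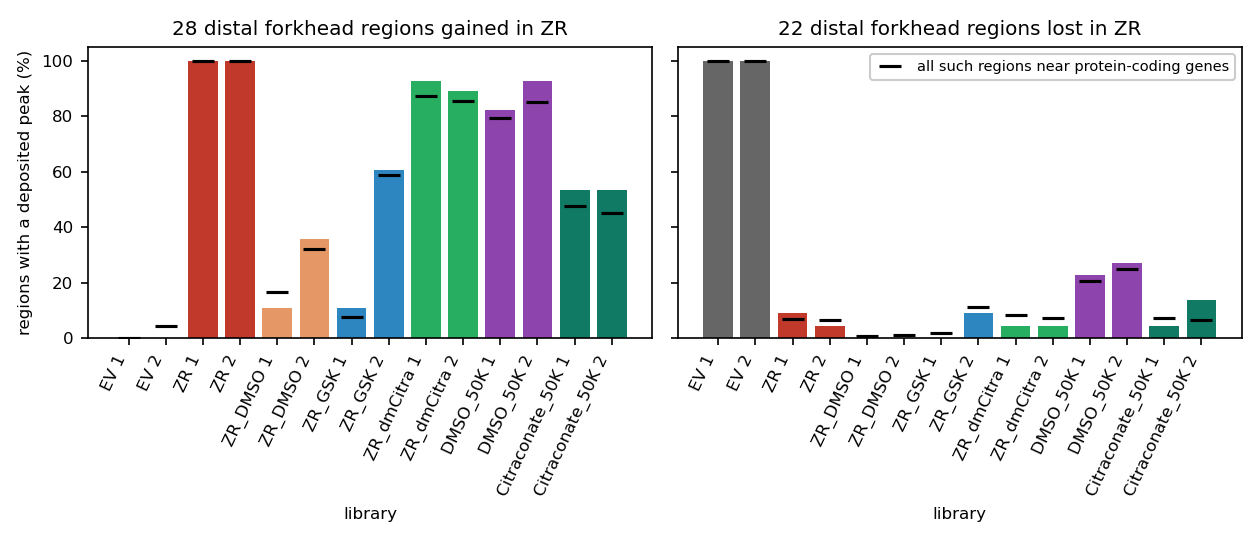
Percentage of the 28 distal forkhead regions gained (left) and the 22 lost (right) in ZR against EV that overlap a deposited peak in each library, with a dash for all such regions near protein-coding genes. EV and ZR bars are fixed by the choice of regions; both DMSO_50K bars are above 80% on the left and below 30% on the right.

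The second comparison asked what EZH2 inhibition changed, with ZR_GSK and ZR_DMSO lists at 12390 peaks. Of 19 members with a gene-end peak, 7 gained one in ZR_GSK (36.8%, where 20.7% of all such genes did) and none lost one (0.405% of all genes). They were the mesenchymal and nodal-pathway factors Foxc1, Foxf1, Foxf2 and Foxh1 among restricted members, and Foxk2, Foxn3 and Foxp1 among broadly used ones. Restricted members with a peak numbered 7 and 8 in ZR_GSK and 3 and 3 in ZR_DMSO, a difference of 4.5 ± 0.707, and broadly used ones 10 and 11 against 7 and 5, a difference of 4.5 ± 1.58 (SD, n = 2 each, exact permutation p = 0.333 for both, two-sided). The groups did not overlap in either class. Nor did they over all protein-coding genes, with 35.8% and 41.3% in ZR_GSK and 23.5% and 24.0% in ZR_DMSO. Of 7 members in all 4 lists, Foxm1 ranked better in both ZR_GSK libraries (36.6% of all such genes did) and Foxo6 worse (17.9%).

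Each of these 7 genes had a peak at a gene end in the deposited lists of both ZR replicates, and Foxc1 had one in ZR_DMSO replicate 2 at rank 16352. With ZR in place of ZR_DMSO as the control, at 19239 peaks, none was lost (1.43% of all such genes) and Foxf2 alone was gained (9.82%), with ranks of 6945 and 10800 in ZR_GSK and 19752 and 27491 in the deposited ZR lists. Against ZR the restricted difference was 1.5 and the broadly used one -0.5. Broadly used members with a peak numbered 11 and 12 in ZR_GSK and 12 and 12 in ZR, of 12. With ZR at the highest possible count, that difference could not be positive. Of 17 members in all 4 of those lists, 7 ranked better in ZR_GSK (42.2% of all such genes) and Foxd2 worse (25.6%). Foxh1 ranked 4072 and 4893 in ZR_GSK and 14080 and 10619 in ZR, and Foxk2 ranked 5260 and 5014 against 16955 and 16528. Foxd2 ranked 9581 and 6578 against 5030 and 3683. Of 40 distal regions 5 were gained (5.32% of all distal regions were) and 8 lost (19.2%), 4 of the lost ones in Foxp1. The narrow peaks and short lists of ZR_DMSO stand beside the gains made against that group, and their part was not tested.

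Of 15 forkhead genes with no gene-end peak in the deposited ZR and ZR_DMSO lists, 0 had one in both ZR_GSK lists, where 1.52% of 10408 such protein-coding genes did. In ZR_GSK replicate 2 alone, 1 had one (Foxi1), where 12.5% of such genes did, so the numbers are too small to set these members apart from other genes. Distal regions numbered 20 in this comparison, of which 3 were gained (5.38% of all distal regions were) and none lost (12.4%). Both counts changed when 1 library was left out, which lets a call rest on the other library of that group. Then 6 were gained and 7 lost without ZR_DMSO replicate 1, and 5 and 4 without ZR_DMSO replicate 2. Without ZR_GSK replicate 2 the counts were 7 and 2. Leaving out ZR_DMSO replicate 1 also lengthened the lists. The gained ones lay 7332 bp from Foxf2 at chr13:31618205-31618763 (6944 and 9037 in ZR_GSK), 11043 bp from Foxh1 at chr15:76656394-76657178 (9198 and 7884), and 2777 bp from Foxc2 at chr8:121113182-121113607 (11269 and 9482). These 3 had a deposited peak in 11, 12 and 10 of the 14 libraries and in neither ZR_DMSO list.

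The third comparison asked what citraconate changed in fusion cells of the first series, and it shares the ZR_DMSO libraries with the second. Of 17 members with a gene-end peak, Foxc1, Foxh1 and Foxp1 gained one in ZR_dmCitra (12.3% of all such genes did) and none lost one (1.56%). Foxc1 ranked 7272 and 9186, Foxh1 10864 and 6929, and Foxp1 7723 and 10687. Restricted members with a peak numbered 4 and 6 against 3 and 3, and broadly used ones 9 and 9 against 7 and 5, differences of 2 ± 1.41 and 3 ± 1.41 (SD, n = 2 each, exact permutation p = 0.333 for both, two-sided). Against ZR no member was gained or lost, with 1.04% and 1.13% of all genes called, and the restricted difference turned to -1. The count of gains was 8 without ZR_DMSO replicate 1, 5 without ZR_dmCitra replicate 1 and 9 with the lists as deposited. The first and last of these settings also change the list length. With 1 library left out, a call rests on the other library of that group. As deposited the restricted and broadly used differences were 5.5 and 5.5, and without ZR_DMSO replicate 1 the broadly used one was 6.

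Of 6 members in all 4 lists, Foxa3, Foxd2 and Foxn2 ranked better in both ZR_dmCitra libraries (47.2% of all genes did) and Foxo3 worse (10.8%). Foxd2 ranked 1735 and 3244 in ZR_dmCitra and 4780 and 8766 in ZR_DMSO. Against ZR, 7 of 21 members ranked better in ZR_dmCitra (28.2% of all such genes), Foxd2 among them, and Foxj3, Foxn2, Foxo3 and Foxo6 worse (25.3%). Foxn2 ranked 2521 and 1567 against 1013 and 1129. Of 23 distal regions 6 were gained (13.7% of all distal regions were) and none lost (8.67%). As deposited 31 were gained, and without ZR_DMSO replicate 1 10 were gained and 3 lost. The 6 lay in Foxp1 (3), Foxj2 (2) and Foxn2 (1). The best-ranked were chr17:88462567-88463189 inside Foxn2 (4720 and 5126), chr6:98949549-98950468 inside Foxp1 (3993 and 5803) and chr6:122804263-122804906, 15600 bp from Foxj2 (6893 and 8289). That Foxp1 region also had a peak in the deposited ZR_DMSO replicate 2 list, at rank 12634. The Foxj2 region just named overlaps one gained in ZR against EV, and so did those in Foxp1 at chr6:99217662-99218328 (7722 and 11168) and chr6:99343708-99344808 (8693 and 12254). The 6th, chr6:122825966-122826902 in Foxj2 (8359 and 11710), was also in both EV lists. Against ZR, 4 of 109 distal regions were gained (5.34% of all distal regions were) and 7 lost (6.09%).

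In the second series, Citraconate_50K and DMSO_50K were compared at 29432 peaks. Ranks of 10 of the 12 broadly used members were better in Citraconate_50K, as were those of most genes. Of 22 members, Foxf2 gained a gene-end peak (7.39% of all genes did) and Foxb1, a factor of the developing diencephalon, lost one (1.51%). Foxf2 had a peak in both deposited DMSO_50K lists at ranks 33836 and 45099, so no gain was found without the reduction in length. Foxb1 ranked 11880 and 13461 in DMSO_50K and had no gene-end peak in either deposited Citraconate_50K list. The 12 broadly used members each had a peak throughout the 4 lists, and restricted members numbered 9 and 8 against 8 and 8 (exact permutation p = 1, two-sided). As deposited, the restricted difference was -3, with no overlap. All protein-coding genes did not overlap there either, at 48.8% and 48.7% in Citraconate_50K and 51.8% and 53.4% in DMSO_50K. Those deposited lists held 31864 and 29574 peaks in Citraconate_50K and 52771 and 60472 in DMSO_50K.

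Of 19 members in all 4 lists 12 ranked better in Citraconate_50K (62% of all genes) and Foxp2, a factor of neuronal circuits, ranked worse (10.7%). The 12 included 10 of the 12 broadly used members. Foxp4 moved from 10604 and 7534 in DMSO_50K to 1669 and 3035, and Foxo1 from 13947 and 20417 to 4542 and 5449. Foxn2 and Foxk2 were the broadly used members whose groups overlapped. The median log2 ratio of DMSO_50K rank to Citraconate_50K rank, positive where the latter ranks better, was 1.15 for broadly used members, 0.63 for restricted ones and 0.70 for all genes.

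Distal forkhead regions numbered 74 there, with 7 gained and 9 lost (9.3% and 18.5% of all distal regions). These counts hold at the shortened length only: as deposited 1 was gained and 40 lost. Gains were 20 without Citraconate_50K replicate 1 and 17 without replicate 2, with 18 losses in the latter. The best-ranked lost region, 7959 bp from Foxo3 at chr10:42173273-42174499 (3856 and 5686 in DMSO_50K), overlaps one that was gained in ZR against EV. The same held for chr6:98955570-98956447 in Foxp1 (12871 and 8311) and for chr13:31578414-31578984 near Foxq1 (10529 and 9890). Lost regions inside Foxj3 at chr4:119545900-119547188 (12272 and 9134) and 5598 bp from Foxb1 at chr9:69766178-69766898 (28081 and 22920) had a peak in the 2 DMSO_50K lists only, and one near Foxn3 at chr12:99576518-99577200 (14322 and 7486) in those and ZR replicate 2. Gained regions of best rank lay near Foxm1 at chr6:128349775-128350105 (18301 and 17815) and chr6:128359121-128359383 (18302 and 16277), and near Foxs1 at chr2:152914122-152914760 (21979 and 19152). Others lay inside Foxo1 at chr3:52297592-52297994 (19833 and 23540), Foxn3 at chr12:99377254-99377641 (23664 and 22624) and Foxp1 at chr6:98997755-98998316 (27963 and 26435). The first Foxm1 region was in 12 deposited lists, and the Foxp1 one in Citraconate_50K lists only. The Foxn3 region had a peak in both deposited DMSO_50K lists too, at ranks 46023 and 49829.

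Genes around the FOXO and FOXM1 factors were counted in the same way. Of 23 genes that regulate FOXO proteins, such as the kinases of the PI3K-AKT pathway, 18 had such a peak throughout the ZR and EV lists. Of those, 14 ranked worse in ZR (46.9% of all genes) and 1 better (24.3%). Of 20 FOXO target genes 15 were in all 4 lists, with 3 better and 6 worse. Of 19 FOXM1 target genes of mitosis 15 were in all 4, with 7 better and 1 worse. In ZR_GSK against ZR_DMSO 6 of 18 FOXO regulators with a peak gained one (Akt2, Sirt1, Insr, Tsc1, Tsc2 and Mtor), beside 2 of 14 FOXO targets (Bcl2l11 and Pink1) and 2 of 15 FOXM1 targets (Cdc25b and Bub1), against 20.7% of all genes. Akt2, Insr, Mtor, Bcl2l11 and Cdc25b had a peak in the deposited ZR_DMSO replicate 2 list. With ZR as control 2 of 18 regulators (Tsc1 and Tsc2), 1 of 15 FOXO targets (Pink1) and 2 of 18 FOXM1 targets (Ccnb2 and Bub1) were gained, against 9.82% of all genes, and 7 of 12 FOXM1 targets in all 4 lists ranked worse (25.6%). Tsc1, Tsc2, Pink1 and Ccnb2 had a peak in both deposited ZR lists, and Bub1 in that of replicate 2. Those gains against ZR thus hold only at the shortened length. In ZR_dmCitra against ZR_DMSO, Insr and Mtor were gained among 14 regulators, and none among 13 FOXO targets and 10 FOXM1 targets, where 12.3% of all genes were. In Citraconate_50K against DMSO_50K, Tsc1 and Tsc2 of 19 regulators and Fbxo32 of 15 FOXO targets were gained (7.39% of all genes), and 12 of 16 FOXM1 targets in all 4 lists ranked better (62% of all genes). Tsc1, Tsc2 and Fbxo32 had a peak in both deposited DMSO_50K lists, so their gains hold only at the shortened length. No gene of these 3 lists lost a gene-end peak in the 4 comparisons.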

How the data were processed

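ATAC-seq libraries were made from 50000 cells each. The submitters' processing notes name mm10, BWA, SAMtools and Picard, with no version. Names of peaks in the deposited lists show MACS2, run library by library. The MACS2 version, its settings and any Tn5 shift were not given in the sources used here. The deposited lists give a score, a fold enrichment (a ratio), −log10 p-values, −log10 q-values and summits, all the authors' own.

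Peaks on chromosomes 1 to 19, X and Y were ranked by −log10 q. The 4 lists of a comparison were cut to the length of the shortest. Gained means a peak in both test and neither control libraries, lost the opposite; ranking better or worse needs all 4 lists. Overlap was at least 1 bp. An exact permutation test over libraries, two-sided, compared group counts. Gene positions are RefSeq GRCm38.p6. The 38 genes, their division by use and the other gene lists were chosen with earlier results of these data known. Named genes were those called at gene ends, those with gene-end peaks in all 14 libraries, and up to 6 distal regions each way. The calling code was tested on simulated lists. Python 3.11.15, pandas 2.3.3, NumPy 2.4.6 and matplotlib 3.10.9 were used. p-values measure the spread between these libraries, which may be technical. Calls of some genes in the other lists are not reported here.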

Additional observations from a re-analysis of the deposited data

Results flagged for a closer look

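The gene-end rank of Foxo3 moved in opposite directions in the 2 citraconate comparisons. It was 4036 and 3414 in ZR_dmCitra against 2458 and 3095 in ZR_DMSO, and 1523 and 1896 in Citraconate_50K against 5511 and 3669 in DMSO_50K (replicates 1 and 2). Both libraries of each citraconate group lay on the same side of their controls, and the sides differed between the series. The difference between the series was not tested.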

How the results depend on the processing

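Of 300 values under other settings, 71 counts moved by more than 1.5 times, or to or from 0, and 6 differences turned sign. The other 223 were counts within 1.5 times and differences that did not turn sign, whatever their size. Settings without chromosome 4 or Foxp1, and all those for ranks, were chosen after seeing the data. In ZR against EV, gains at gene ends numbered 0 with windows of 500 bp and 2 kb and at starts only; at 2 kb there was 1 loss and a restricted difference of -1; without Foxp1 18 distal regions were gained. In ZR_GSK against ZR_DMSO, distal gains and losses were 7 and 2 as deposited, 6 and 1 at −log10 q of at least 5, and 5 and 8 with ZR as control; losses were 1 with a 50 kb flank. With ZR as control gene-end gains were 1, better ranks 7 and the broadly used difference -0.5; gains were 4 at starts only, worse ranks 0 at 500 bp and better ranks 2 at 2 kb. In ZR_dmCitra against ZR_DMSO, gene-end and distal gains were 9 and 31 as deposited and 10 and 31 at −log10 q of at least 5, with restricted and broadly used differences of 5.5 and 5.5, and 5.5 and 6.5. With ZR as control there were 0 gene-end gains, 7 distal losses, a restricted difference of -1, and 7 better and 4 worse ranks. Gene-end gains were 1 at starts only, and distal gains 12 with a peak over 50% of the region and 3 without Foxp1. In Citraconate_50K against DMSO_50K, as deposited there were 0 gene-end gains, 2 losses, a restricted difference of -3, 1 distal gain and 40 distal losses; at −log10 q of at least 5 these were 0 gains, -2.5, 0 and 44. Losses were 0 at starts only; distal gains and losses were 14 and 19 with a 50 kb flank, and losses 18 with a peak over 50% of the region. The causes were not tested, beyond the smaller number of peaks or genes that some settings use by construction.

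Leaving out 1 library at a time gave these ranges. A call then rests on the 1 library left in that group, a looser rule, and the lists can be longer. In ZR against EV: losses at gene ends 0 to 1, restricted difference -0.5 to 1, distal losses 22 to 41, better ranks 6 to 10. In ZR_GSK against ZR_DMSO: distal gains 3 to 7 and losses 0 to 7, better ranks 1 to 7 and worse ranks 1 to 3. In ZR_dmCitra against ZR_DMSO: gene-end gains 4 to 8 and losses 0 to 1, restricted difference 1 to 3, broadly used difference 2 to 6, distal gains 7 to 10 and losses 0 to 3, better ranks 3 to 7 and worse ranks 1 to 2. In Citraconate_50K against DMSO_50K: distal gains 7 to 20 and losses 11 to 18, worse ranks 1 to 3. The restricted difference of -0.5 came without EV replicate 2 and the 41 distal losses without EV replicate 1. Without ZR_DMSO replicate 1, distal gains, distal losses and better ranks in ZR_GSK were 6, 7 and 7, and gene-end gains in ZR_dmCitra 8; without ZR_dmCitra replicate 1 the last were 5. Distal gains in Citraconate_50K were 20 without its replicate 1 and 17 without its replicate 2. The labels do not say that a replicate number marks a shared culture; with the number as a block the restricted and broadly used differences were unchanged (0.5 and 0, 4.5 and 4.5, 2 and 3, 0.5 and 0 in the 4 comparisons), with exact permutation p = 0.5 for those of ZR_GSK and ZR_dmCitra, the smallest possible for 2 pairs. Depth is unknown, so an absent peak is not shown to be absent accessibility.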

Other observations

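Other families of developmental transcription factor genes were counted in the same lists. By deposited list, 23.5% to 56.1% of all protein-coding genes had a gene-end peak. None of 9 Pax genes had a gene-end peak in any library. Among 6 sine oculis homeobox genes, Six5 had one in every library and 2 to 5 had one in each. Six2, a kidney and craniofacial progenitor factor gene, was gained in ZR against EV at ranks 2659 and 2687. Of 17 T-box genes, 2 to 8 had a gene-end peak. In ZR against EV 7 T-box genes had one in any of the 4 lists, of which Tbx6, Tbx15 and Mga were gained (3.09% of all such genes) and Tbx2 was lost (6.92%), with EV ranks of 4744 and 6074. Tbx2 had a peak in both deposited ZR lists, at ranks 36344 and 38269, so its loss holds only at the shortened length.

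By library, gene-end peaks were found at 1 to 5 of 6 neuronal, 0 to 3 of 6 oligodendrocyte, 0 to 3 of 8 mesenchymal and vascular and 0 to 4 of 6 ependymal markers. The share over all protein-coding genes was 23.5% to 56.1%. In ZR against EV, where 6.92% of all genes were called lost, 4 of 7 neural stem genes (Sox2, Sox1, Nes and Hes5), 1 of 3 oligodendrocyte genes (Olig2), 1 of 2 microglial genes (P2ry12) and 1 of 2 mesenchymal and vascular genes (Kdr) were lost, and no neuronal, astrocyte or ependymal marker was called. Foxj1, a forkhead gene of motile cilia outside the 38 and listed here as an ependymal marker, gained a gene-end peak in ZR_GSK at ranks 6036 and 9291, against ZR_DMSO and also against ZR. The microglial gene Spi1 was gained in ZR_GSK against either control (4790 and 6555). Over all genes with a peak, 20.7% were gained in ZR_GSK against ZR_DMSO and 9.82% against ZR. The neuronal gene Syt1, 1 of 2 with a peak, was gained in ZR_dmCitra against ZR_DMSO (12.3% of all such genes). In Citraconate_50K against DMSO_50K, of 4 neuronal genes with a peak, Tubb3 was gained (7.39% of all such genes) and Snap25 lost (1.51%). Tubb3 had a peak in both deposited DMSO_50K lists, so its gain holds only at the shortened length. Of 3 ependymal genes with a peak there, Tmem212 was lost. ZR_GSK against ZR also gained Notch1 and Msi1 of 4 neural stem genes with a peak, and Col1a1 of 1 mesenchymal and vascular gene. Rsph1 and Foxj1 were gained there of 3 ependymal genes with a peak. Notch1, Col1a1 and Rsph1, like Foxj1, had a peak in both deposited ZR lists, and Msi1 had one in neither. The share over all genes was the 9.82% given above.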
